A study of Mus musculus with 10 samples.

Results

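The circadian clock genes Per1, Per2, Per3, Cry1, Cry2, Clock, Nr1d1, Nr1d2 and Dbp were followed in an RNA immunoprecipitation (RIP) of MEX3A, an RNA-binding protein, from adult mouse neural stem cell cultures. They were taken by symbol, and each of the 9 was found once among the 15899 genes of the matrix. The molecular clock is a feedback loop of transcription. CLOCK and its partner BMAL1 (the product of Arntl) activate genes that carry E-boxes, among them the Per and Cry genes, whose proteins return to the nucleus and repress that activation. A second loop runs through the REV-ERB receptors, products of Nr1d1 and Nr1d2, which repress Arntl and Clock, and the timing also depends on how fast clock mRNAs and proteins are degraded. Dbp is an output of the loop, a transcription factor that carries the rhythm to genes with D-boxes.

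The mice were 10 weeks old, and cells of their subependymal zone (SEZ), the neurogenic region along the lateral ventricle, had been expanded as neurospheres with EGF and FGF. The FLAG group came from Mex3aFLAG/FLAG mice, whose own Mex3a gene carries a FLAG peptide at the end of the protein. The WT group came from Mex3a+/+ mice of the same background, which carry no tag, so that RNA pulled down by the anti-FLAG antibody there was nonspecific. The pulldown was done after formaldehyde crosslinking (2 libraries of each genotype) and in native extracts without it (3 libraries of each genotype). Neurospheres are bulk cultures of mixed cell states, and they were passaged in vitro, outside the animal. The time of day of collection is not given in the sources used here, and input RNA was not analysed here. A higher value in FLAG than in WT can therefore reflect RNA held by MEX3A or more of that RNA in the culture, and fewer cells of a type and less RNA per cell cannot be told apart.

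All values are on the deposited log2 scale, on which 1 unit is a doubling. The distribution of values was nearly the same in every library, the values raised from the log2 scale adding up to about 949430 in each, so the number of reads behind a value is unknown. FLAG native replicates 1 and 3 had 329 and 178 genes tied at their lowest value, against at most 3 in every other library. Many values that rest on these 2 libraries are also given with both left out. Mex3a itself had FLAG values above the WT values of the same protocol without overlap, by 1.15 in crosslinked and 2.11 in native libraries, and was not called (adjusted p = 0.0789 across the 10 libraries). Over the WT native mean it was higher by 2.70, 0.78 and 2.85 in FLAG native replicates 1 to 3, so the 2 libraries with the most tied values had the largest Mex3a difference, and replicate 2, which remains when they are left out, the smallest. All 9 markers of neural stem and progenitor cells fixed for the check had values, among them Nes, Sox2 and Sox9, and none of the 4 neuroblast markers was analysed here. Of the microglial markers, 3 of 4 had values, and their summed linear level lay between 28.8 and 36.6 in every library, with Cx3cr1 at log2 values of 3.94 to 4.61, P2ry12 at 2.99 to 4.32 and Csf1r at -0.15 to 0.97. The summed level of the stem and progenitor markers lay between 2022 and 2982, with Egfr the highest of them at 10.10 to 10.90, and the sums, which are not per length, are not compared.

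The 9 genes were measured in every library, and their mean levels lay between the 18.7th and the 92.9th percentile of all genes. Levels of different genes were compared only per kb of the longest annotated coding transcript, in the 5 WT libraries, where they describe the nonspecific background of the pulldown. On this log2 per kb scale Clock stood highest at 3.22 ± 0.09 (SD, n = 5). Per1 followed at 2.80 ± 0.42, Cry1 at 2.49 ± 0.22, Per2 at 2.32 ± 0.16, Nr1d2 at 2.24 ± 0.24 and Cry2 at 2.06 ± 0.18. From Clock down to Cry2, each gene lay above the next by no more than the larger SD of the pair, so neighbours in this part of the order did not differ beyond their spread. Nr1d1 at 1.63 ± 0.26 and Per3 at 1.34 ± 0.05 were lower by steps of 0.43 and 0.29, and Dbp was the lowest by far at -0.35 ± 0.37, 1.69 below Per3. With the length of all merged exons in place of the longest transcript, Nr1d1 (1.45) passed Cry2 (1.39). Before division by length, the mean of Dbp over all libraries was at the 18.7th percentile of all genes and that of Clock at the 92.9th.

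MEX-3 proteins are known to bind a short bipartite motif, the MEX-3 recognition element (MRE), which lies in 3' UTRs, the untranslated ends of mRNAs that control their stability and translation. Its letters were searched on the transcribed strand in each gene's longest 3' UTR of the annotation, in the form the methods of the study give, a 4-base part ending in AG and a 4-base part ending in TA with at most 8 bases between them. Of 12113 genes of the matrix with an annotated 3' UTR, 77.2% held at least 1 match, at a median length of 1261 nt. The clock genes ranged from none to 37. Each start was counted, so first parts that share the same second part count separately, as both matches of Per1 do. The 3' UTR of Per1 belongs to another transcript than the longest coding transcript used for its level. The match nearest the stop codon is given for the 6 genes that hold any, with the motif parts in capitals and 5 flanking bases on each side, from GENCODE M21 on GRCm38.
Per1, chr11:69105760-69105774, plus strand: cgtgtTTAGttagattTCTAgatag
Per2, chr1:91417699-91417712, minus strand: aaaacTGAGgggaggTTTAggagg
Per3, chr4:151004723-151004734, minus strand: gacggGGAGgaggTTTAcagtg
Cry2, chr2:92405182-92405194, minus strand: tctgtGTAGaacctTCTAgaagc
Clock, chr5:76216448-76216461, minus strand: ttttgATAGaaagagTATAttgcc
Nr1d2, chr14:18206634-18206644, minus strand: tatgcTGAGatgTTTAtttat

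Clock held 37 matches in 6831 nt of 3' UTR, where the 354 3' UTRs within 20% of that length held a median of 19. Nr1d2 held 15 in 2631 nt, against a median of 7 at its length. The Per and Cry genes held fewer, with 2 matches in Per1 (803 nt), 5 in Per2 (1889 nt), 4 in Per3 (2224 nt) and 4 in Cry2 (2177 nt), against medians of 2, 5, 6 and 5 at these lengths. No match was found in Cry1 (612 nt), Nr1d1 (288 nt) or Dbp (323 nt), whose 3' UTRs are short, and at these lengths 64.9%, 42.8% and 43.9% of 3' UTRs hold one. In the results text of the study the second part of the motif ends in AT, and with that form the counts changed. Clock then held 21 matches against a median of 19 at its length, Nr1d2 13 against 6 and Cry1 6 against 1. Per2 held 6, Per3 5 and Cry2 3, and Per1, Nr1d1 and Dbp held none. The AU-rich pentamer ATTTA, a mark of unstable mRNAs, occurred 20 times in Clock, 6 times in Nr1d2, from 1 to 3 times in Per2, Per3, Cry1, Cry2, Nr1d1 and Dbp, and not in Per1; 72.1% of all 3' UTRs hold it. These are matches of letters, and binding at them was not measured here.

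No clock gene was called enriched or depleted in the MEX3A pulldown. To be called, a gene had to pass an adjusted p-value of 0.05 (limma, Benjamini-Hochberg adjustment for 15899 tests). It also had to differ by over 0.58 on the log2 scale, that is 1.5-fold. Both limits are those of the study, which applied them to a DESeq2 test and kept genes enriched in both protocols. The calls here are therefore not the study's own. The crosslinked comparison called no gene of the matrix (smallest adjusted p = 0.315), so it cannot set the clock genes apart. Between the 2 FLAG and 2 WT crosslinked libraries, 0 of 9 clock genes were called, with 0.0% of all genes called. Between the 3 FLAG and 3 WT native libraries it was 0 of 9, with 0.107% of all genes called, and with all 10 libraries in 1 fit and the protocol as a covariate it was 0 of 9, with 0.497% of all genes called. At an unadjusted p-value under 0.05, Dbp alone of the 9 differed in the native libraries and over all libraries, against 16.7% and 21.1% of all genes, and none did in the crosslinked ones, against 7.7%. The median log2 fold change of the 9 genes over all libraries was -0.06, beside -0.03 for all genes, and their values ran from -0.27 for Cry2 to 0.77 for Dbp. For 7 of the 9 genes, all but Nr1d1 and Dbp, the upper limit of the 95% confidence interval over all libraries lay under 0.58, which was so for 63.3% of all genes. For 6 of these, all but Cry2, the whole interval lay within 0.58 of 0, which was so for 32.3% of all genes. Intervals over all libraries, here and below, take the 10 libraries as independent. They may be too narrow if crosslinked and native libraries came from the same cultures. Without FLAG native replicates 1 and 3, the values of Per1, Per2, Per3, Cry1 and Clock turned from negative to between 0.01 and 0.12.

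**Figure D1:**
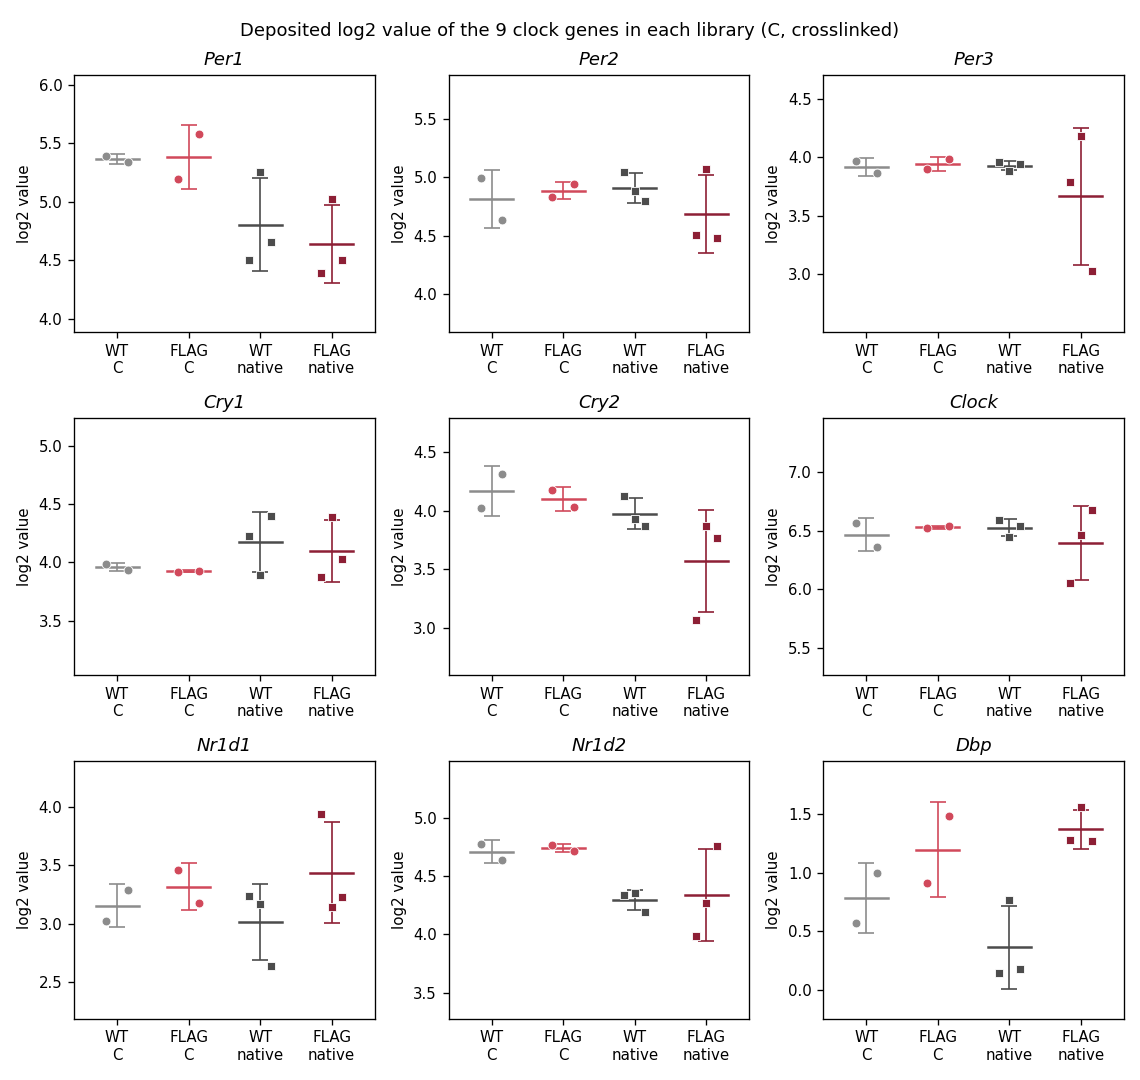
Deposited log2 value (vertical axis, the same span of 2.2 units in every panel) of the 9 clock genes in each of the 10 libraries, by genotype and IP protocol; points are libraries, long horizontal lines group means and whiskers 1 SD. FLAG and WT overlap for most genes, Dbp is higher in all 3 FLAG native than in the 3 WT native libraries, and Per1 is lower in native than in crosslinked libraries of the same genotype.

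The Period genes encode the PER proteins, the limiting part of the repressor complex. Per1 (ENSMUSG00000020893, GRCm38 chr11:69095217-69109960) had values of 5.39 and 5.34 in the crosslinked WT libraries and of 5.19 and 5.58 in the crosslinked FLAG libraries. In the native libraries, in the order of replicates 1 to 3, it had 4.50, 5.25 and 4.65 in WT and 4.39, 5.02 and 4.51 in FLAG. The genotypes overlapped in both protocols, and replicate 2 was the highest native library in either genotype. FLAG over WT, the log2 fold change was 0.02 in crosslinked, -0.16 in native and -0.09 (standard error 0.18, adjusted p = 0.764) over all libraries.

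Per2 (ENSMUSG00000055866, chr1:91415982-91459324), which like Per1 is induced by CLOCK and BMAL1 at its promoter, had values of 4.99 and 4.64 in crosslinked WT and of 4.83 and 4.94 in crosslinked FLAG libraries. Its native values were 5.04, 4.88 and 4.80 in WT and 4.50, 5.07 and 4.48 in FLAG. FLAG native replicates 1 and 3 lay below the WT libraries and replicate 2 above them. The log2 fold change across the 10 libraries was -0.10 (standard error 0.15, adjusted p = 0.671), and 0.11 without FLAG native replicates 1 and 3.

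Per3 (ENSMUSG00000028957, chr4:151003652-151044665), the PER family member that the rhythm depends on least, varied little except among the FLAG native libraries. It had 3.97 and 3.86 in crosslinked WT, 3.90 and 3.99 in crosslinked FLAG and 3.96, 3.88 and 3.94 in native WT libraries. The FLAG native values were 3.79, 4.18 and 3.03, so that the lowest and the highest value of the gene were in the same group. The log2 fold change across the 10 libraries was -0.15 (standard error 0.19, adjusted p = 0.642), and 0.04 without FLAG native replicate 3, its lowest library.

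The cryptochromes CRY1 and CRY2 bind the PER proteins and are the strongest direct repressors of CLOCK and BMAL1. Cry1 (ENSMUSG00000020038, chr10:85131700-85185064) had 3.99 and 3.94 in crosslinked WT and 3.92 and 3.93 in crosslinked FLAG libraries, and 4.23, 3.90 and 4.40 in native WT and 3.87, 4.39 and 4.03 in native FLAG libraries. The crosslinked FLAG values lay just under the WT values, which was so for 19.9% of all genes with 2 libraries a group, and the native groups overlapped. The log2 fold change was -0.04 in crosslinked, -0.08 in native and -0.06 (standard error 0.14, adjusted p = 0.796) over all libraries.

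Cry2 (ENSMUSG00000068742, chr2:92403646-92434043) had the most negative value of the 9 genes. In crosslinked libraries it had 4.02 and 4.32 in WT and 4.18 and 4.03 in FLAG, which overlap. In native libraries it had 4.13, 3.93 and 3.87 in WT and 3.07, 3.87 and 3.77 in FLAG, and all 3 FLAG values lay below the 3 WT values, as for 10.8% of all genes, although its nearest libraries, WT replicate 3 and FLAG replicate 2, were equal at this rounding. In native libraries FLAG over WT came to -0.41 on the log2 scale (standard error 0.26, adjusted p = 0.410), and over all libraries it was -0.27 (standard error 0.17, adjusted p = 0.352). It rested on FLAG native replicate 1, without which these values were -0.16 and -0.12. Without FLAG native replicates 1 and 3 they were -0.11 and -0.08.

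CLOCK is the activator of the loop and also a histone acetyltransferase. Clock (ENSMUSG00000029238, chr5:76209868-76304792) had the highest level per kb in WT, not beyond its spread from Per1, and has the longest 3' UTR of the 9 genes, with 5.42 MRE matches per kb beside 5.70 in Nr1d2. It had values of 6.57 and 6.37 in crosslinked WT, 6.52 and 6.54 in crosslinked FLAG, 6.59, 6.45 and 6.54 in native WT and 6.05, 6.46 and 6.68 in native FLAG libraries. The genotypes overlapped in both protocols, with the lowest and the highest value both in native FLAG. Its log2 fold change was 0.06 in crosslinked, -0.13 in native and -0.05 over all libraries, with a standard error of 0.12, an adjusted p-value of 0.810 and a 95% confidence interval from -0.33 to 0.22.

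The REV-ERB receptors are heme-binding nuclear receptors that recruit the corepressor NCOR1 and HDAC3 to silence Arntl. Nr1d1 (ENSMUSG00000020889, chr11:98767932-98775333), the gene of REV-ERBα, had 3.02 and 3.29 in crosslinked WT and 3.46 and 3.18 in crosslinked FLAG libraries, and 3.24, 3.17 and 2.64 in native WT and 3.94, 3.15 and 3.23 in native FLAG libraries. The groups overlapped in both protocols, and the span of native values was set by a low WT replicate 3 and a high FLAG replicate 1. Its log2 fold change was 0.16 in crosslinked, 0.42 in native and 0.32 (standard error 0.19, adjusted p = 0.338) over all libraries, where the 95% confidence interval from -0.11 to 0.74 did not leave out a 1.5-fold enrichment. Without FLAG native replicate 1 the value over all libraries was 0.17, and without WT native replicate 3 it was 0.20.

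Nr1d2 (ENSMUSG00000021775, chr14:18204054-18239127), the gene of REV-ERBβ, had 4.78 and 4.64 in crosslinked WT and 4.77 and 4.71 in crosslinked FLAG libraries. Its native values were 4.33, 4.36 and 4.19 in WT and 3.99, 4.27 and 4.76 in FLAG. FLAG and WT overlapped in both protocols, and FLAG native replicate 3 alone of the native libraries reached the crosslinked level. The log2 fold change across the 10 libraries was 0.04 (standard error 0.14, adjusted p = 0.882, 95% confidence interval -0.27 to 0.35), in a gene whose 3' UTR holds 15 MRE matches.

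**Figure D2:**
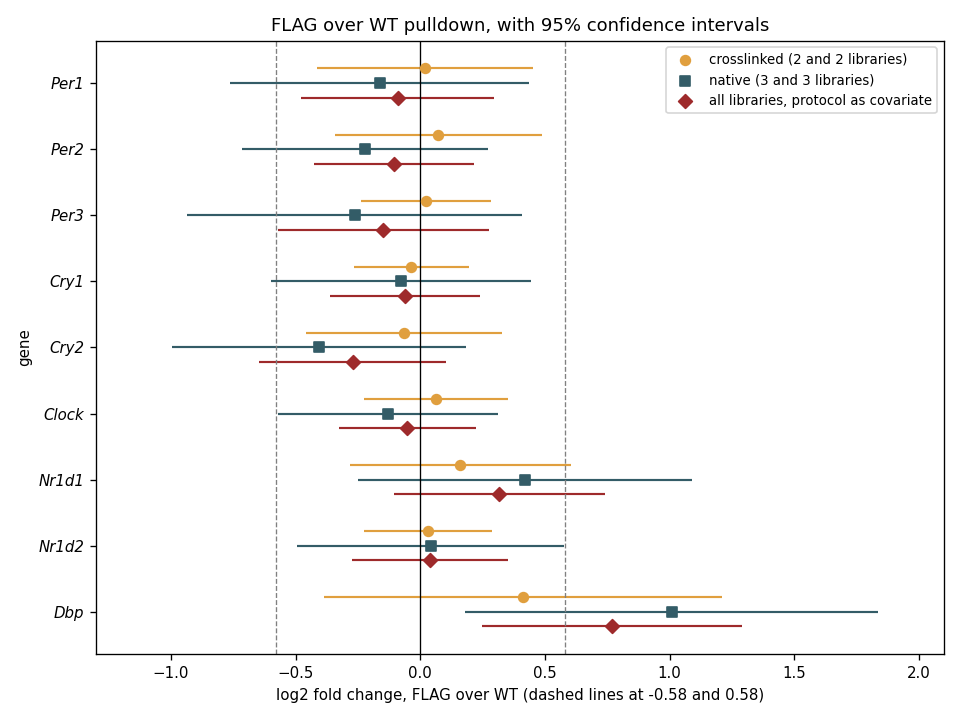
Log2 fold change of FLAG over WT (horizontal axis) of each clock gene in crosslinked, native and all libraries; points are limma estimates, bars 95% confidence intervals and dashed lines the 1.5-fold limits of the study. Over all libraries the interval of Dbp alone lies above 0, those of 7 genes stay under 0.58 at their upper end, and no gene was called.

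Dbp (ENSMUSG00000059824, chr7:45705088-45710203) encodes a PAR bZIP factor whose transcription follows CLOCK and BMAL1 closely. It was the lowest of the 9 genes and had the largest log2 fold change of FLAG over WT. In crosslinked libraries it had values of 0.57 and 1.00 in WT and of 0.91 and 1.48 in FLAG. In native libraries it had 0.14, 0.77 and 0.18 in WT and 1.28, 1.57 and 1.27 in FLAG. The native FLAG libraries all lay above the native WT libraries, as for 8.62% of all genes, while the crosslinked groups overlapped. FLAG exceeded WT by a log2 fold change of 0.41 in crosslinked libraries (standard error 0.29, adjusted p = 0.789), by 1.01 (standard error 0.36, unadjusted p = 0.0224, adjusted p = 0.268) in native libraries and by 0.77 (standard error 0.24, unadjusted p = 0.00793, adjusted p = 0.137, 95% confidence interval 0.25 to 1.29) over all libraries. Among all genes, 5.98% had a larger value over all libraries. Over all libraries limma's array weights were 10.2 for FLAG crosslinked replicate 2 and 9.02 for WT crosslinked replicate 1. They were 0.124 and 0.159 for FLAG native replicates 1 and 3. Array weights also called far more genes across the matrix than the main fit, with counts given at the end. The adjusted test was passed with these array weights (adjusted p = 0.000898 over all libraries) and with those of the native libraries (adjusted p = 0.0460). It was not passed under the other alternatives, whose adjusted p-values over all libraries ran from 0.0907 to 0.394.

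The size of the Dbp difference depended on how low values were treated. With 1 added on the linear scale before the logarithm the log2 fold change across the 10 libraries was 0.50, and with 8 added it was 0.15. Without FLAG native replicates 1 and 3, the libraries with the most tied low values, it was 0.75 (adjusted p = 0.394), and with any single library left out it lay between 0.68 and 0.91. The crosslinked value of 0.41 ran from 0.13 without FLAG crosslinked replicate 2 to 0.70 without FLAG crosslinked replicate 1. The difference between the native and the crosslinked fold change of Dbp was 0.60 (standard error 0.48, adjusted p = 0.970), from 0.31 without FLAG crosslinked replicate 1 to 0.88 without FLAG crosslinked replicate 2. In this test of the difference between the protocols 0 of the 9 clock genes were called, with 0.0% of all genes called, and at an unadjusted p-value under 0.05 it was again 0 of 9, against 0.428% of all genes.

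Dbp, Nr1d1 and Cry2 share exonic bases with a gene on the opposite strand, and whether the authors' counting used the strand is not given in the sources used here, so reads from these bases cannot be assigned with certainty. Dbp shares 539 nt (18.0% of its exonic bases) with Sphk2, the gene of a sphingosine kinase. In either orientation, 26.5% of all runs of 75 nt in the Dbp transcript, the read length, also occur in another gene. The overlap with Sphk2 counts in this share as well, so the 2 figures are not separate. Sphk2 had 1.64 and 1.68 in crosslinked WT, 1.66 and 1.98 in crosslinked FLAG, 1.47, 1.80 and 1.86 in native WT and 2.44, 2.12 and 2.43 in native FLAG libraries. Like Dbp, it was higher in all native FLAG than in all native WT libraries and overlapped in the crosslinked ones. Its log2 fold change across the 10 libraries was 0.44 (standard error 0.17, adjusted p = 0.194), and its Pearson correlation with Dbp was 0.675 over the 10 libraries. The log2 fold change of Sphk2 was 0.27 without FLAG native replicates 1 and 3, where Dbp was 0.75.

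Nr1d1 shares 263 nt (8.55% of its exonic bases) with Thra, the gene of thyroid hormone receptor α, which lies tail to tail with it. Across the 10 libraries FLAG exceeded WT in Thra by 0.29 on the log2 scale (standard error 0.18, adjusted p = 0.357), beside the 0.32 of Nr1d1, and had a correlation of 0.545 with it. The fold changes of Thra and Nr1d1 were 0.05 and 0.15 without FLAG native replicates 1 and 3. Cry2 shares 295 nt (4.67%) with the noncoding gene D930015M05Rik. In the native FLAG libraries D930015M05Rik had 2.31, 3.48 and 2.90, with its lowest value in replicate 1 as in Cry2. Its log2 fold change across the 10 libraries was -0.46 (standard error 0.22, adjusted p = 0.251), and -0.11 without FLAG native replicates 1 and 3. Its correlation with Cry2 was 0.949. These correlations are over libraries that share the groups and the normalization, and the part of shared reads in them was not tested. The other 6 clock genes share no exonic base with another gene, although Nr1d2 has 2.70% of its runs of 75 nt in common with other transcripts.

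**Figure D3:**
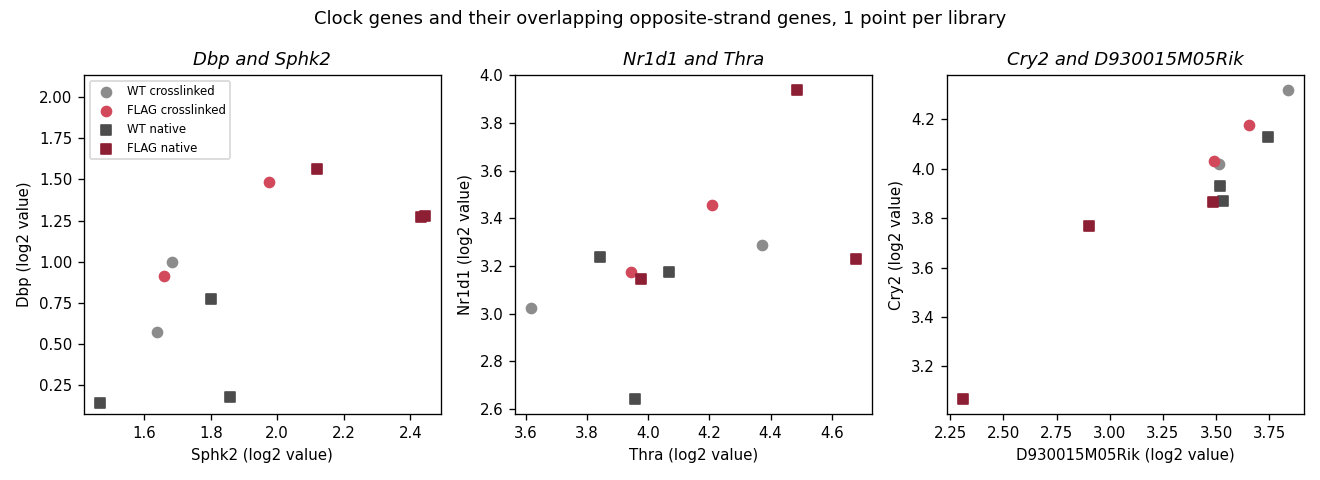
Log2 value of Dbp, Nr1d1 and Cry2 (vertical axes) against the gene on the opposite strand that shares exonic bases with it (horizontal axes); each point is 1 of the 10 libraries, coloured by group. Cry2 and D930015M05Rik lie along a line (r = 0.949), with FLAG native replicates 1 and 3 at its low end, and the other pairs scatter more.

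The clock genes were also compared between the protocols within a genotype, in the same libraries as before, which in WT describes the nonspecific background and in FLAG the pulldown of the tagged protein. In WT 0 of 9 genes were called, with 0.333% of all genes called, and in FLAG 0 of 9, with 0.44% of all genes called (limma). At an unadjusted p-value under 0.05 it was 0 in WT, against 7.48% of all genes, and Per1 in FLAG, against 15.4%. Per1 differed the most. Its crosslinked values, from 5.34 to 5.39 in WT and from 5.19 to 5.58 in FLAG, lay above the native values of the same genotype, from 4.50 to 5.25 and from 4.39 to 5.02. The log2 difference of crosslinked over native was 0.56 (standard error 0.26, adjusted p = 0.690) in WT and 0.74 (standard error 0.26, adjusted p = 0.235) in FLAG. With both genotypes in 1 fit and genotype as a covariate, a comparison added after these values were seen, it was 0.65 (standard error 0.18, unadjusted p = 0.00402, adjusted p = 0.0679), and 0 of the 9 genes were called, with 4.11% of all genes called. Within each genotype taken separately, 8.3% of all genes had every crosslinked library above every native library in both WT and FLAG, and of the clock genes Per1 alone did. Across the genotypes Per1 overlapped, with 5.19 in FLAG crosslinked replicate 1 and 5.25 in WT native replicate 2.

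The call on Per1 between the protocols depended on the fit. Libraries of the same genotype and replicate number may come from 1 culture, and with the culture as a random block the difference was 0.63 (adjusted p = 0.0291). This block and array weights each called more genes across the matrix than the main fit, with counts given at the end. The array weights were 10.2 for FLAG crosslinked replicate 2 and 9.02 for WT crosslinked replicate 1. Per1 also passed the test with array weights (0.68, adjusted p = 0.00259) and without FLAG native replicate 2 (0.73, adjusted p = 0.0336). It did so too without WT native replicate 2 (0.76, adjusted p = 0.0253). These are the native libraries in which Per1 was highest. In the FLAG libraries alone it passed without FLAG native replicate 2 (0.94, adjusted p = 0.0332), while without FLAG native replicates 1 and 3 it was 0.36. Without these same libraries the difference over both genotypes was 0.49 (adjusted p = 0.137).

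Nr1d2 was the other clock gene with a difference between the protocols at an unadjusted p-value under 0.05, beside 20.4% of all genes. Crosslinked over native, it differed by 0.41 in WT, by 0.40 in FLAG and by 0.41 (standard error 0.14, adjusted p = 0.139) with both genotypes in 1 fit. The adjusted p of this last value (limma) was 0.00115 with array weights, 0.0375 without FLAG native replicate 3 and 0.0251 without FLAG native replicates 1 and 3, at differences of 0.46, 0.51 and 0.44, which stay under 0.58. In WT, Nr1d2 and Per1 were higher in each crosslinked than in each native library, as were 17.3% of all genes, while in FLAG the native replicate 3 of Nr1d2 fell among the crosslinked values. Cry2 had a difference of 0.54 (standard error 0.25, adjusted p = 0.340) in FLAG and of 0.19 in WT. In FLAG, it and Per1 were higher in each crosslinked than in each native library, as were 17.9% of all genes, and without FLAG native replicates 1 and 3 the difference was 0.24. Cry1 had -0.19 (adjusted p = 0.483) with both genotypes in 1 fit, and -0.30 (adjusted p = 0.0193, limma) with array weights, again under 0.58 in size. The remaining genes differed by 0.01 to 0.13 in that fit, beside quartiles of -0.18 and 0.27 for all genes.

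**Figure D4:**
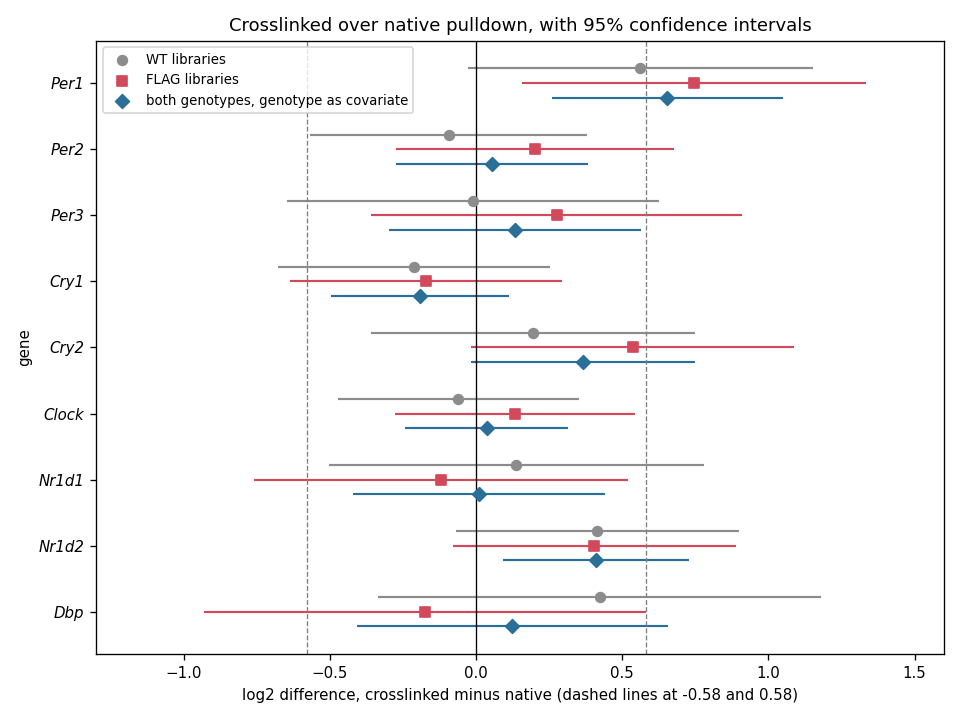
Log2 difference of crosslinked over native pulldown (horizontal axis) of each clock gene in the WT libraries, the FLAG libraries and both; points are limma estimates, bars 95% confidence intervals and dashed lines lie at -0.58 and 0.58. Per1 and Nr1d2 have an interval above 0 with both genotypes in 1 fit, and no gene was called.

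Correlations among the clock genes from library to library lay on both sides of 0. Over the 10 libraries the 36 pairs had a median Pearson correlation of 0.11, and 20 pairs were positive. After the mean of each group was subtracted, the median was 0.06 with 21 positive pairs. Before subtraction Per2 and Per3 had the highest correlation (0.75) and Clock and Nr1d1 the lowest (-0.70). After it the highest was that of Clock and Nr1d2 (0.88) and the lowest that of Cry1 and Nr1d1 (-0.72). The points share groups, depth and normalization, and no test was made.

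Of a wider list of clock genes in 8 roles, 31 had values. None of the 31 was called in crosslinked, native or all libraries, in the test of the difference between the protocols or between the protocols within a genotype. Their median log2 fold change across the 10 libraries was 0.05, with a median of 0.04 in crosslinked and 0.06 in native libraries, beside -0.02 and -0.04 for all genes. At an unadjusted p-value under 0.05 over all libraries, 6 of 31 were higher and 3 lower, against 11.2% and 9.85% of all genes. The named genes of each role are those with its largest and smallest value over all libraries.

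Among the partners of CLOCK, Npas2, a CLOCK paralogue that also pairs with BMAL1, had a FLAG over WT difference of 0.77 on the log2 scale (standard error 0.28, adjusted p = 0.176), and Arntl2, a paralogue of BMAL1, of -0.60. In crosslinked libraries Npas2 had 3.13 and 3.63 in WT and 3.93 and 4.49 in FLAG, and in native libraries 3.77, 3.44 and 3.39 in WT and 3.34, 5.05 and 4.42 in FLAG, where FLAG replicate 1 lay below all WT libraries. Of the ROR receptors, which activate Arntl against the REV-ERBs, Rora had -0.52 and Rorb -0.05. Of the D-box factors, Nfil3, a repressor that competes with DBP for its sites, had 0.40 and Hlf, a relative of DBP, -0.09, beside the 0.77 of Dbp. Without FLAG native replicates 1 and 3 these values were 1.12 for Npas2, -0.22 for Arntl2, -0.25 for Rora, 0.21 for Rorb, 0.70 for Nfil3 and -0.01 for Hlf.

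Among the repressors at E-boxes, Bhlhe40 had the largest value of the wider list, 0.84 (standard error 0.23, adjusted p = 0.111), and Bhlhe41 had -0.02. Bhlhe40 had 2.26 and 2.49 in crosslinked WT, 2.70 and 2.80 in crosslinked FLAG, 2.13, 2.30 and 1.71 in native WT and 3.43, 2.65 and 3.49 in native FLAG libraries. In both protocols its FLAG values lay above the WT values without overlap, as for 4.84% of all genes. Without FLAG native replicates 1 and 3 the value of Bhlhe40 was 0.47 and that of Bhlhe41 0.15. Bhlhe40 is on the study's list of MEX3A-bound genes, which was chosen on these libraries, so its direction here is not independent evidence.

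The genes that control the stability of PER and CRY proteins lay on both sides of 0. Among kinases and phosphatase subunits, Csnk2b, the regulatory subunit of casein kinase 2, had 0.57 and Csnk1d, which phosphorylates PER, 0.05. Among ubiquitin ligase parts, Btrc, which directs PER to degradation, had -0.47, and its FLAG values lay below the WT values in both protocols, as for 4.47% of all genes. Of other cofactors, Nono had 0.36 and Timeless -0.39. Of 2 further outputs, Nampt, an enzyme of NAD synthesis, had 0.51 and the cell cycle kinase gene Wee1 -0.02. Without FLAG native replicates 1 and 3 these values shrank to 0.20 for Csnk2b, -0.19 for Btrc, 0.07 for Nono, -0.30 for Timeless and 0.25 for Nampt, while Csnk1d had -0.12 and Wee1 -0.18. None of these had an adjusted p-value under 0.05.

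**Figure D5:**
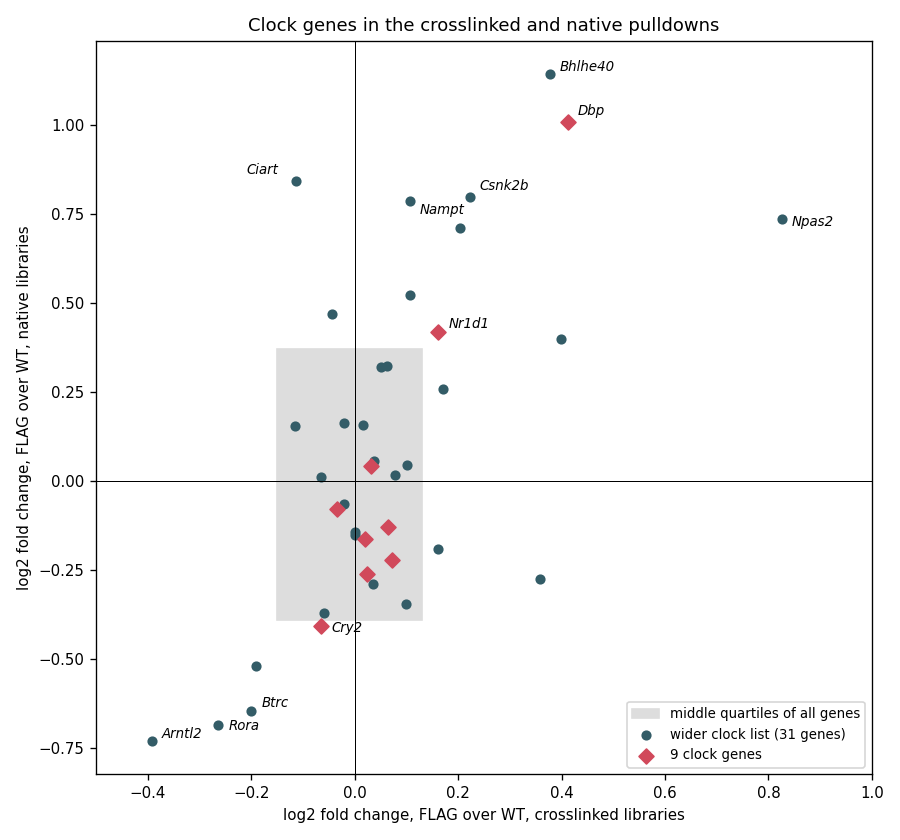
Log2 fold change of FLAG over WT in native libraries (vertical axis) against crosslinked libraries (horizontal axis) for the 9 clock genes and 31 further genes of the clock; the grey box spans the lower to the upper quartile of all genes on each axis. Of the 9 clock genes 6 lie inside the box, Dbp and Nr1d1 lie above it to the right and Cry2 lies just below it.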

How the data were processed

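RIP-seq with an anti-FLAG antibody gave 10 libraries, grouped by genotype and IP protocol from the labels. The authors trimmed the reads with cutadapt and Trimmomatic, mapped them to GRCm38 with HISAT2, counted them with featureCounts and deposited 1 matrix of normalized log2 values. Their methods name DESeq2 for the normalization and the submitters' notes limma. The values look quantile-normalized, which neither states, and counts cannot be recovered, so no count model was fitted. The kit keeps strand, and the strand setting of the counting is not given in the sources used here.

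The log2 values as deposited were tested with limma 3.58.1 (R 4.3.3, lmFit and eBayes with a trend, two-sided) and Benjamini-Hochberg adjustment over all genes, with no filter and no pseudocount. The steps were tested on simulated data. The study counted the libraries as independent biological replicates. Deviations of FLAG and WT libraries with the same number correlated negatively (-0.43 to -0.15). This gave no sign that equal numbers pair the genotypes, but it cannot exclude another pairing. With 2 libraries a group, the values of both crosslinked replicates are equal by construction. Between the protocols, same-numbered libraries of a genotype correlated by 0.15 to 0.39, which may reflect shared cultures. Annotation was GENCODE M21 (15864 genes found, 14849 with the start and end of the matrix), read with Python 3.11.15 and pandas 2.3.3; matches were re-read from the RefSeq copy of GRCm38.

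The 9 members and the lists were chosen with earlier results of these data known. Named are the 9 members, Mex3a, genes sharing exonic bases with a member, and from the wider list any called gene and the largest and smallest value of each role; some items are not reported here. Alternatives were pseudocounts of 1 and 8, a minimum mean of 10, quantile normalization, median centring, the replicate number as a block, the culture as a random block, array weights, robust moderation, 1 fit of 4 groups, each library left out and, added after the values were seen, FLAG native replicates 1 and 3 both left out, a crossed pairing, the comparison of the protocols over both genotypes, and those settings not first planned for the comparisons between protocols.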

Additional observations from a re-analysis of the deposited data

How the results depend on the processing

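No alternative reversed a called clock gene, since none was called, and of 1165 alternative values of the 9 genes 7 were called, all of them Dbp or Per1, and 1079 kept their direction. The 86 that turned were at most 0.25 in size and none was called. Counts over all genes moved far more. In native libraries, where 17 genes were called, it was 7 with a minimum mean of 10, which drops Dbp and Nr1d1, 27 with robust moderation, 4 in 1 fit of 4 groups, 9 without FLAG native replicates 1 and 3, and 3577 with array weights (1 of the 9 genes, Dbp, and 8 of the wider list), which weigh FLAG native replicate 2 the least. With single libraries left out it ran from 0 to 3160 (0 to 8 of the wider list), the highest without FLAG native replicate 2. Over all libraries, where 79 genes were called, it was 41 with a pseudocount of 8, 43 with the minimum mean, 34 with the replicate number as a block, 15 with the culture as a random block, 17 in 1 fit of 4 groups, 18 without FLAG native replicates 1 and 3, 2069 with array weights (1 of the 9 genes, Dbp, and 2 of the wider list), and 13 to 702 with single libraries left out (0 to 1 of the wider list). Between crosslinked libraries it was 0 to 4 with single libraries left out, and for the difference between the protocols 0 to 1, in place of 0. The block called 14 genes in native and 0 in crosslinked libraries, a crossed pairing of the crosslinked libraries 0.

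Between the protocols in WT (53 genes), the count was 4 and 2 with pseudocounts of 1 and 8, 2 with the minimum mean, 2 with the replicate block, 92 with the culture block, 864 with array weights (1 of the wider list), 86 without FLAG native replicates 1 and 3, and 0 to 142 with single libraries left out. In FLAG (70 genes) it was 26 and 3 with these pseudocounts, 11 with the minimum mean, 12 with the replicate block, 192 with the culture block, 1488 with array weights (3 of the wider list), 0 without FLAG native replicates 1 and 3, and 3 to 2648 with single libraries left out (0 to 1 of the 9 genes, 0 to 4 of the wider list). With both genotypes (653 genes) it was 197 with a pseudocount of 8, 209 with the minimum mean, 305 with the replicate block, 1138 with the culture block and 2028 with array weights (in each 1 of the 9 genes, Per1, and 1 of the wider list), and 236 to 1049 with single libraries left out (0 to 1 of the 9 genes, 0 to 1 of the wider list). A library left alone in its group was assumed to vary like the others, and the culture block could not be applied within 1 protocol. The cause of these shifts was not tested. The depth of the libraries is unknown, so the counting error of low genes such as Dbp cannot be given.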
